A study of Mus musculus with 2 samples.

Results

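The genes described here are 10 regulators of cell division in mouse: the mitotic cyclins Ccna2, Ccnb1 and Ccnb2, the cyclin-dependent kinase Cdk1, the kinases Plk1, Aurka and Aurkb, and the spindle checkpoint kinases Bub1, Bub1b and Ttk. They were found by gene symbol in the deposited expression table, which gave 20 probes for the 10 genes, out of 56594 probes, of which the named ones cover 26878 genes. Of the 20 probes, 19 were well above background on both arrays. All 10 genes thus had a measured difference, as did 16354 genes in all.

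RNA came from stem cells grown as neurospheres from a glioblastoma that a Sleeping Beauty (SB) transposon had induced in mice. One culture carried a lentiviral short hairpin RNA against Stat5b, and the other carried a non-target hairpin in the same line. Each was stably transduced, kept in serum-free medium with EGF and bFGF, and hybridised to 1 single-colour Agilent array. The series asks how suppression of Stat5b, which carries cytokine signals from JAK kinases to the genome, alters expression in this line. With 1 array per group there is no replicate check and no test, and every difference below describes these 2 arrays.

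Entry into mitosis is driven by Cdk1 bound to a B-type cyclin, after cyclin A2 has supported DNA replication and late G2. Polo-like kinase 1 and the Aurora kinases build the spindle, attach chromosomes to it and prepare the cell for division. Bub1, Bub1b and Ttk delay chromosome separation until every kinetochore is attached. These genes are transcribed mainly late in the cell cycle, and many of their promoters hold CCAAT boxes, bound by NF-Y, and a cell cycle homology region (CHR), bound by MuvB complexes.

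The promoter stretches below are shown because the 10 genes share a direction on these arrays, and they let the letters around their starts be compared. RefSeq promoters of assembly GRCm38.p6, from 250 bases before to 50 after the start, were at hand for 8 of the genes, the exceptions being Ccna2 and Aurkb. Each line gives the CHR letters closest to the start in capitals, on the strand of the gene, with up to 12 bases either side. Counted from the start, these letters begin at position -15 in Cdk1. In the other genes they begin after the start, at positions from 5 (Ccnb2) to 41 (Bub1b).
Cdk1, chr10:69352910-69352939, minus strand: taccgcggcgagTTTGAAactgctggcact
Ccnb2, chr9:70421533-70421562, minus strand: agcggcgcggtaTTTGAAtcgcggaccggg
Ttk, chr9:83834684-83834713, plus strand: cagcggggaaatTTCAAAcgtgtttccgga
Plk1, chr7:122159453-122159482, plus strand: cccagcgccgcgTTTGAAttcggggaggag
Aurka, chr2:172370521-172370550, minus strand: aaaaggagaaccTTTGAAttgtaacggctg
Bub1b, chr2:118598239-118598260, plus strand: agagacgttaaaTTTGAAactt
Bub1, chr2:127831828-127831857, minus strand: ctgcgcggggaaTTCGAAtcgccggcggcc

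The letters TTTGAA, searched on both strands, were in 6 of the 8 promoters and in 17.9% of the 32851 promoters of the table. The palindrome TTCGAA was in 2 of the 8, those of Bub1 and Bub1b, and in 1.56% of all. Ccnb1 held neither within this window. In Ttk the element lies on the opposite strand and is printed as its complement. The letters CCAAT, on either strand, were in 8 of the 8 promoters and in 37.4% of all, with several boxes in 6 of them. Of 8 pairs of neighbouring boxes, 5 had their first bases 32 or 33 bases apart, in Aurka, Ccnb2 (both pairs), Cdk1 and Ccnb1. In 7 promoters CHR letters followed the last CCAAT box, between 25 bases (Ccnb2) and 153 bases (Bub1b) downstream. The E2F-type letters GGCGGGAA (2.19% of all) and GGCGCGAA (0.524% of all) were in 0 of the 8. The letters TTCNNNGAA, the spacing known for STAT5 sites, were added to the search after the files were read. They were in 8.30% of all promoters and in 0 of the 8. No CCAAT match overlapped a CHR match. These are matches of letters and not shown to be bound sites.

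To show the arrangement, the 150 bases before the start of Cdk1, Ccnb2 and Ccnb1 follow, with CCAAT boxes on either strand and TTTGAA in capitals.
Cdk1, chr10:69352913-69353062, minus strand: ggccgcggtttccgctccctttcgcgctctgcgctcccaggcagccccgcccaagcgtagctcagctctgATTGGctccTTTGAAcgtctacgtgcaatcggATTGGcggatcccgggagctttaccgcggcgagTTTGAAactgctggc
Ccnb2, chr9:70421555-70421704, minus strand: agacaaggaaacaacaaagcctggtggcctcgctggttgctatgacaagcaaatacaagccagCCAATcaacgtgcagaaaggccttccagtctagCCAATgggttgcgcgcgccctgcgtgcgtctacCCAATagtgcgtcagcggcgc
Ccnb1, chr13:100786487-100786636, minus strand: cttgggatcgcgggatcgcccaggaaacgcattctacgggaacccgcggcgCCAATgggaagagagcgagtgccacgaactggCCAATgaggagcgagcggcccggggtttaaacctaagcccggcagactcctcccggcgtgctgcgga
Cdk1 has 2 boxes on the opposite strand in this stretch, Ccnb2 has 3 and Ccnb1 has 2 on the strand shown. The TTTGAA letters of Ccnb2, at positions -167 and 5, lie outside this stretch.

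The hairpin was checked on its target first. The brighter Stat5b probe read 498 (processed signal) on the knockdown array and 1991 on the control array, which is 25.0% of control. The arrays were alike in brightness: 58.6% of probes were well above background on the knockdown array and 59.5% on the control array. Of 8 fixed markers of neural and glioma stem cells, 5 were measured on both arrays, among them Nes, with 15867 on the knockdown array and 18174 on the control array. The 5 gene log2 differences lay between -0.20 (Nes) and 0.01 (Prom1). At their brightest probes Cd44 (9837 in the knockdown, 7933 in the control) and Msi1 (225 in the knockdown, 199 in the control) were higher in the knockdown. Their gene log2 differences went the other way, at -0.09 for Cd44 and -0.10 for Msi1. Vim (88538 in the knockdown, 96090 in the control) and Prom1 (70.8 in the knockdown, 97.4 in the control) were lower. The Prom1 gene value near 0 thus hides a lower brightest probe. Sox2, Fabp7 and Slc1a3 were not well above background in either culture. Of 6 microglia and immune markers, 4 were measured, and Ptprc had a signal of 4831 on the knockdown array against 3288 on the control array, with a gene log2 difference of 0.55. Itgam had 4632, Csf1r 807 and C1qb 27.8 on the knockdown array, against 4250, 556 and 31.4 on the control array. Aif1 and Cx3cr1 were not well above background in either culture. These are the signals of the brightest probe of each marker. Of the remaining markers 2 of 5 for neurons, 4 of 4 for oligodendrocytes and 4 of 5 for endothelial and mural cells were measured. Among the last, Cspg4 had 1247 on the knockdown array and 528 on the control array (log2 difference 0.77), and Cdh5 had 50.4 on the knockdown array and 84.7 on the control array (-0.75). Rgs5 was at 0.46 and Pecam1 at 0.26. The oligodendrocyte markers lay between -0.38 (Mog) and 0.14 (Mbp), and the neuronal Tubb3 and Snap25 were at -0.08 and 0.17. Against its gene value, the brightest Mbp probe was lower in the knockdown (1047) than in the control (1381). The part of these cell identity markers in the results below was not tested.

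Every one of the 10 mitotic cyclin and kinase genes had a lower signal on the knockdown array, as did all 19 of their measured probes. The background for this count is that 48.8% of all measured genes lay below 0. The median log2 difference of the 10 genes, knockdown minus control, was -0.56, or 68.0% of control, against 0.01 over all measured genes. The differences ran from -1.16 for Ccna2 to -0.36 for Bub1b. One of the 10, Ccna2, was at least 2-fold lower, where 2.41% of all genes were, and 0 were at least 2-fold higher, where 3.67% of all genes were. In a whole culture, fewer dividing cells and less of each transcript per dividing cell cannot be told apart.

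**Figure D1:**
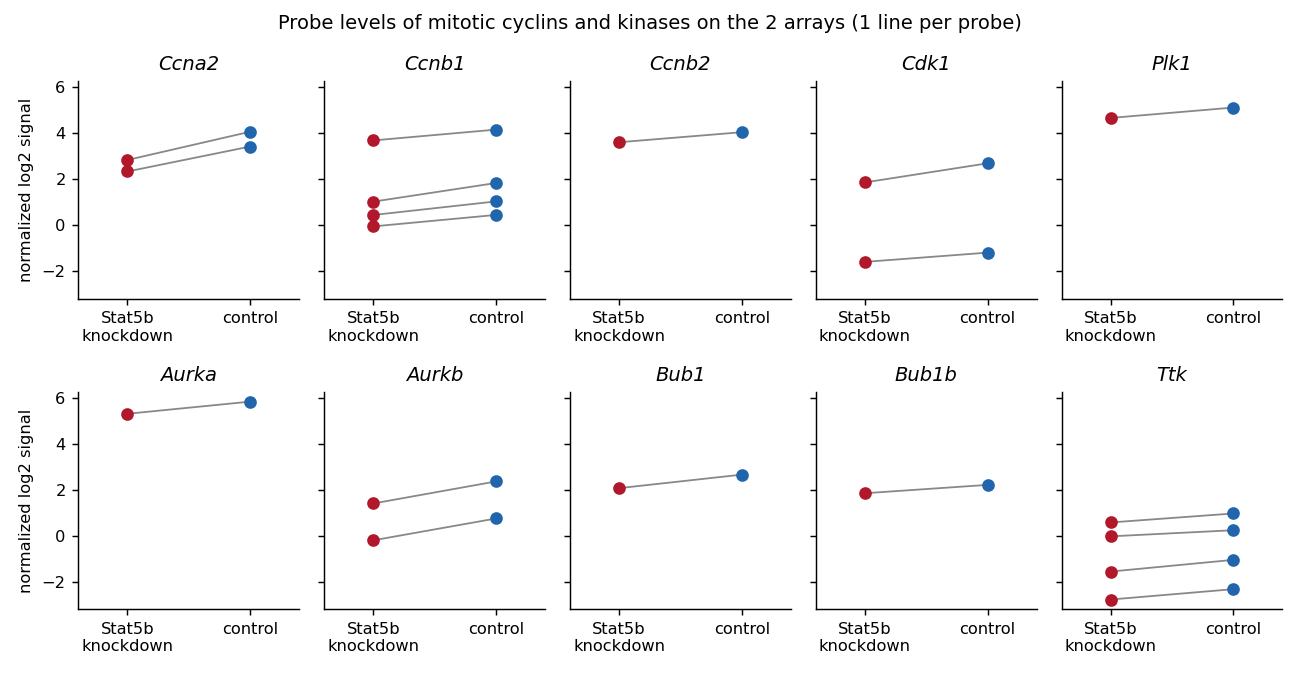
Normalized log2 signal (log2 of the processed signal minus the 75th percentile of its array) of each measured probe of the 10 genes, on the Stat5b knockdown array (left, red) and the control array (right, blue), with a line joining the 2 values of a probe. All 19 lines lie lower at the knockdown end; heights of different probes are not comparable.

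Cyclin A2 had the lowest value of the 10. One Ccna2 probe read 3535 (processed signal) on the knockdown array and 8267 on the control array. The other gave 2501 on the knockdown array and 5296 on the control array. Both probes were thus past 2-fold on their own, at log2 differences of -1.23 and -1.08. Their mean was -1.16 ± 0.14, a 2.23-fold lower level, and 243 of the 16354 genes (1.49%) had a value as low or lower. Here and below, ± is an error computed from the error that the scanner software gives to each spot. The errors of both arrays, and of all measured probes of a gene, were combined as if independent. The result is about 0.204 for any bright probe. It does not cover disagreement between probes of a gene or differences between cultures.

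The B-type cyclins, which activate Cdk1 at mitotic entry, were lower by less. Of the 4 Ccnb1 probes, the brightest had 6368 on the knockdown array and 8810 on the control array. The next had 1009 on the knockdown array and 1767 on the control array. Each of the 4 was lower on the knockdown array, at log2 differences between -0.81 and -0.47. The mean over them was -0.59 ± 0.10, or 66.4% of control. Ccnb2, with 1 probe, had 6030 on the knockdown array and 8149 on the control array, a log2 difference of -0.44 ± 0.20. Both Ccna2 probes lay below all of the Ccnb1 probes and below the Ccnb2 probe in log2 difference. The gap between Ccna2 and Ccnb1 was -0.56 and that between Ccna2 and Ccnb2 was -0.72. Different probes of 1 gene had an SD of 0.310 over all genes and of 0.151 over these genes. The Ccnb1 and Ccnb2 values differed by -0.16, which is within the SD over all genes and about the size of that over these genes.

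The probes of Ccnb1 do not all report separate stretches of the transcript. The brightest and the dimmest of the 4 share a run of 26 bases, shown because their signals are then not independent of each other.
Ccnb1, shared stretch: tttaatttatacatctgatatcaagt
Their log2 differences were -0.47 and -0.50. The other 2 probes share no run of 20 bases with any probe on the array, and they gave -0.81 and -0.59. They are printed to show what was read.
Ccnb1, probe at -0.81: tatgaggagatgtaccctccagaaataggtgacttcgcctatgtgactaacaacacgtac
Ccnb1, probe at -0.59: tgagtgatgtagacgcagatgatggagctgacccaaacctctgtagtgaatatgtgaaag
A probe labelled for a cyclin B1 pseudogene, Ccnb1-ps, had 5949 on the knockdown array and 10108 on the control array, a log2 difference of -0.77 ± 0.20. It shares no run of 20 bases with the Ccnb1 probes, but RNA of near-identical copies can bind either, so the Ccnb1 value is uncertain in that respect.

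Cdk1, the catalytic partner of these cyclins, was measured by 2 probes that disagreed in size. The brighter one had 1799 on the knockdown array and 3197 on the control array, a log2 difference of -0.83. The dimmer one had 165 on the knockdown array and 217 on the control array, a difference of -0.40. Both were lower in the knockdown, and their SD of 0.303 was the largest among the 5 genes with several measured probes. The mean was -0.62 ± 0.14, or 65.2% of control. The brighter probe alone puts Cdk1 at 56.2% of control and the dimmer one at 75.7%. The brighter probe is shown because the Cdk1 estimate turns on it.
Cdk1, probe at -0.83: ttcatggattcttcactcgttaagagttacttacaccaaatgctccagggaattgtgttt

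Aurkb, the kinase of the chromosomal passenger complex, came next to Ccna2. Its brighter probe had 1318 on the knockdown array and 2555 on the control array. Its dimmer probe had 435 on the knockdown array and 838 on the control array. The 2 probes gave -0.96 and -0.95, with an SD of 0.00633, the smallest among the 5 genes with several measured probes. The mean of -0.95 ± 0.14 was 51.7% of control, just short of 2-fold. Its relative Aurka, the Aurora kinase of centrosomes and spindle poles, had 19598 on the knockdown array and 28224 on the control array at its only probe, a difference of -0.53 ± 0.20. Aurkb was lower than Aurka by -0.42, which is 1.37 times the SD between probes of 1 gene in size. Plk1, which acts from mitotic entry to cytokinesis, had 12533 on the knockdown array and 17116 on the control array, a difference of -0.45 ± 0.20. That put Plk1 at 73.2% of control, beside 73.9% for Ccnb2.
Aurkb, dimmer probe at -0.95: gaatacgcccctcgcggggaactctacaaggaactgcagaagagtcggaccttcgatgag

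Of the spindle checkpoint kinases, Bub1b and Ttk had the 2 smallest differences of the 10 genes, while Bub1 lay beside Ccnb1. Bub1, which marks unattached kinetochores, had 2090 on the knockdown array and 3137 on the control array, a difference of -0.59 ± 0.20. A second Bub1 probe, for another transcript, had 3.14 on the knockdown array and 2.89 on the control array and was not well above background in either culture, so its difference has no direction. Bub1b, which encodes the checkpoint protein BubR1, had 1794 on the knockdown array and 2305 on the control array, a difference of -0.36 ± 0.20. It was the smallest of the 10 differences, and 17.3% of all genes had a value as low or lower. Ttk, the kinase that starts checkpoint signalling, had 4 measured probes, all lower in the knockdown. The brightest of them had 745 on the knockdown array and 975 on the control array, and the dimmest had 73.3 on the knockdown array and 99.9 on the control array. The 4 log2 differences lay between -0.51 and -0.27, and their mean was -0.40 ± 0.10, or 75.6% of control.
Bub1, measured probe: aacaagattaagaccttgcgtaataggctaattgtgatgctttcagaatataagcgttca
Bub1b, only probe: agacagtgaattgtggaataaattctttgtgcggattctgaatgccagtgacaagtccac
Ttk, probe at -0.27: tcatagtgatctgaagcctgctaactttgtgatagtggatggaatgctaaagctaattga
These 3 probes are shown because Bub1 and Bub1b each rest on 1 measured probe and this Ttk probe gave the smallest difference of any measured probe of the 10 genes.

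**Figure D2:**
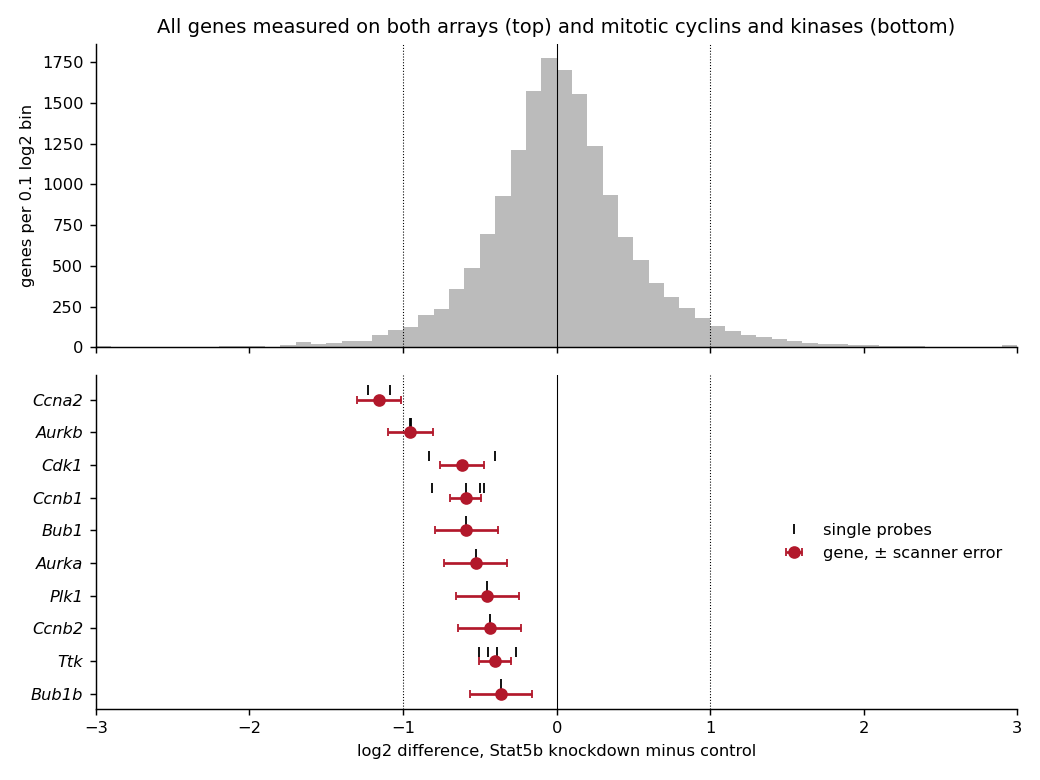
The upper panel counts all 16354 measured genes by log2 difference (knockdown minus control, bins of 0.1, values beyond 3 in size in the end bins). The lower panel gives the 10 genes (red, bars show the error computed from the scanner software's spot errors) and their single probes (ticks). Dotted lines mark 2-fold, and Ccna2 is the 1 gene of the 10 past it.

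Position on the array was examined because large differences were more frequent in its last 64 rows, where 7.57% of measured probes differed 2-fold or more, against 5.43% in the other rows. Of the 19 measured probes, 6 lie there: both of Aurkb, 2 of Ccnb1, and those of Plk1 and Bub1. Around each of the 20 spots, probes within 10 rows and 10 columns had a median log2 difference between -0.07 and 0.03. After that local median was taken off, the 19 probes still ranged from -1.22 to -0.29. Without the last 64 rows Aurkb, Plk1 and Bub1 have no value, and the other 7 genes all lay below 0.

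A list of 14 genes was drawn up around the switching of Cdk1 on or off, not all of them regulators of Cdk1 itself. All were measured and 14 lay below 0, beside 48.8% of all measured genes. None reached 2-fold in either direction, and the median was -0.41. The phosphatases Cdc25a (-0.90 ± 0.12) and Cdc25c (-0.63 ± 0.20), which remove inhibitory phosphate from cyclin-dependent kinases, were among the lowest, with cyclin F (Ccnf, -0.73 ± 0.12) between them. With normexp background correction Ccnf came to -0.57. The inhibitory kinase Pkmyt1 was at -0.03 ± 0.14 and Cdk7, of the activating kinase, at -0.01 ± 0.20. Cdk2 (-0.04) and Ccnh (-0.11), the cyclin partner of Cdk7, both named after their values were seen, were also near 0. The inhibitory side of the list also holds Wee1 (-0.22), Cdkn1a (-0.56) and Cdkn3 (-0.50), likewise named after their values were seen.

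Among 16 partners of the Aurora and Polo kinases, 15 lay below 0, with a median of -0.60. For this list and those that follow, 48.8% of all measured genes lay below 0. At least 2-fold lower were 2.41% of all genes, and at least 2-fold higher 3.67%. Sgo1, which protects centromeric cohesion, was the 1 gene at least 2-fold lower (-1.11 ± 0.14). Pbk, a mitotic kinase, was at -0.90 ± 0.20 and Tpx2, the activator of Aurka, at -0.74 ± 0.20. At the other end Nedd1 was at -0.20 ± 0.15, and Rcc2 was the 1 gene above 0 (0.54 ± 0.20). Of 15 partners in the spindle checkpoint and kinetochore, 14 lay below 0, with a median of -0.57. The centromere protector Sgo2a (-1.11 ± 0.21) and the Ndc80 complex subunit Spc25 (-1.03 ± 0.14) were at least 2-fold lower, though not with normexp background correction (-0.86 and -0.98), and Zw10 was at -0.95 ± 0.20. Spc24, another subunit of that complex, was at 0.03 ± 0.20 and Mad2l1bp at -0.03 ± 0.20.

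A list of further kinases and cyclin-related genes, not all of them mitotic, went both ways. Of 20 genes 17 were measured, 9 below 0 and 8 above, with a median of -0.02. The share below 0 was near the 48.8% of all measured genes. Ccna1, the germ cell relative of Ccna2, Ccnb3 and Ccnb1ip1 had no probe well above background. Among relatives of Plk1, Plk3 was at least 2-fold lower (-1.02 ± 0.20, or -0.96 with normexp), and Plk4, the kinase of centriole duplication, was at -0.90 ± 0.12. Plk4 came to -0.73 with normexp and to -0.64 with dim probes let in. Plk2 was at 0.72 ± 0.20, and Plk5 was the 1 gene at least 2-fold higher (1.14 ± 0.32). Its dim probe, in the last 64 rows, had 43.7 on the knockdown array and 19.8 on the control array, and with normexp the difference was 0.29. Melk was at -0.42 ± 0.20. Outside the naming rule and after their values were seen, Nek2 (-0.26), Nek7 (-0.34), Haspin (-0.41), Vrk1 (-0.32) and Cit (-0.24) were lower. In the same way Nek6 (0.45), Nek9 (0.16), the checkpoint kinase Chek2 (0.48) and Stk10 (0.65) were higher. Near 0 were Aurkc (0.02), Chek1 (0.0015) and Mastl (-0.02, with probes from -0.22 to 0.35).

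Of 19 genes for the transcription of cell cycle genes, 14 lay below 0 and 3 were at least 2-fold lower, with a median of -0.37. The lowest was Mybl2 (-1.73 ± 0.20), the B-MYB protein that joins MuvB to activate late cell cycle genes. Its only measured probe, in the last 64 rows, had 3535 on the knockdown array and 11703 on the control array. Tfdp1, the DNA-binding partner of E2F proteins, was at -1.47 ± 0.14 and E2f2 at -1.46 ± 0.14. Foxm1, another activator of mitotic genes and named outside the rule after its value was seen, was at -0.55, with probes at -0.80 and -0.29. Named in the same way, the MuvB genes Lin54 (-0.43), Lin9 (-0.24) and Rbbp4 (-0.05) lay below 0. Lin37 (0.13) and Lin52 (0.17), also of MuvB, lay above 0. Of the NF-Y genes, Nfya (-0.37) and Nfyb (-0.35) lay below 0 and Nfyc (0.09) above. E2f1 was at 0.40 ± 0.20, also from the last 64 rows, and the pocket protein gene Rbl2 at 0.22 ± 0.21.

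A list for mitotic exit holds subunits and regulators of the phosphatases that reverse mitotic phosphorylation, among them Ensa and Arpp19, which encode inhibitors of a PP2A form. It had 7 of 13 genes below 0, near the 48.8% of all measured genes, with a median of -0.02. Of its genes 0 were past 2-fold in either direction. They ran from Cdc14b (-0.29 ± 0.14), Ppp2r2a (-0.26 ± 0.12) and Arpp19 (-0.22 ± 0.14) to Ensa (0.21 ± 0.12) and Ppp2ca (0.31 ± 0.20). The 3 Ppp2r2a probes ranged from -0.73 to 0.04, and Ppp2r2a came to -0.03 with RefSeq probes alone and to -0.14 with normexp. Cdc14b came to -0.58 with RefSeq probes alone, -0.51 with its brightest probe and -0.18 with normexp. Ensa came to 0.04 with its brightest probe. Genes of G1/S and replication had 16 of 21 measured genes below 0, with a median of -0.37. Ccne1, the cyclin of S phase entry, was the 1 gene of those measured on both arrays that was at least 2-fold lower (-1.75 ± 0.20), followed by Cdc45 (-0.86 ± 0.14) and Rrm2 (-0.81 ± 0.20). Ccnd1 was at 0.15 ± 0.20 and Cdk6 just short of 2-fold higher at 1.0 ± 0.12, or 0.87 with normexp. Ccne2 was well above background in the control culture alone, from a spot in the last 64 rows with 2.95 on the knockdown array and 74.9 on the control array. Its control value was 5.77-fold above the lowest value of any probe well above background on the knockdown array. That is a rough guide to the size of the difference and not a strict bound. The differences between these medians and that of the mitotic cyclins and kinases were not tested.

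**Figure D3:**
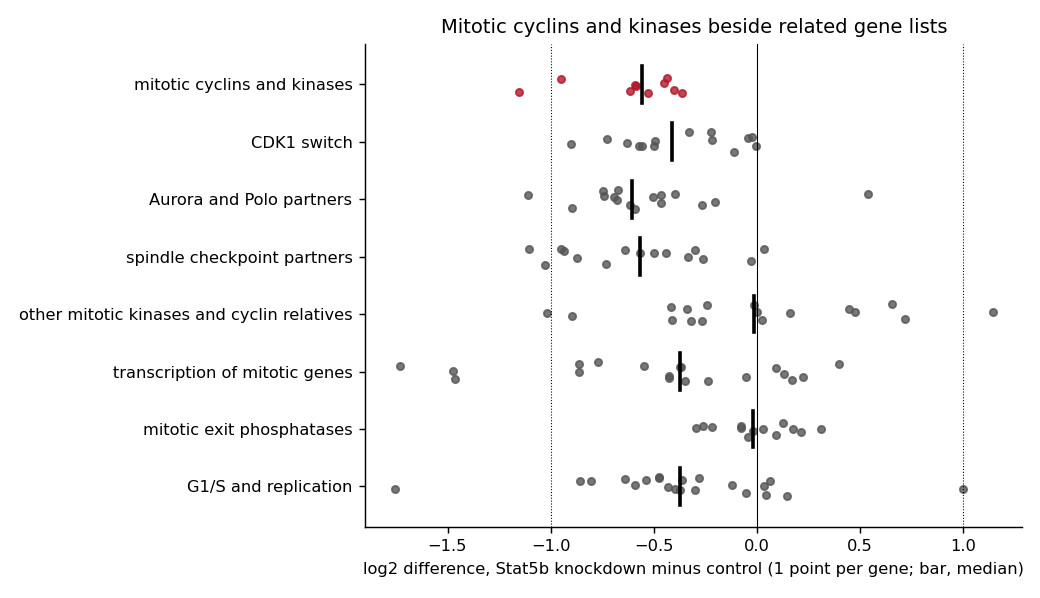
Log2 difference (knockdown minus control) of each measured gene of the mitotic cyclins and kinases (red) and of 7 related lists (grey), with black bars at the medians and dotted lines at 2-fold. The 10 red points all lie below 0, and medians run from -0.60 for the Aurora and Polo partners to -0.02 for the further kinases and the mitotic exit list.

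The values of the 10 genes were recomputed under 9 other processing settings. Each of the 87 values so obtained was below 0, and Ccna2 was past 2-fold under all 9. These settings are not independent checks. Median scaling and the authors' table only shift all genes by nearly the same small amount. Genes with 1 measured probe cannot change when the brightest probe is taken. Bub1 came to -0.23 when its dim probe was let in. Cdk1 came to -0.83 and Ccnb1 to -0.47 when the brightest probe stood for the gene.

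**Figure D4:**
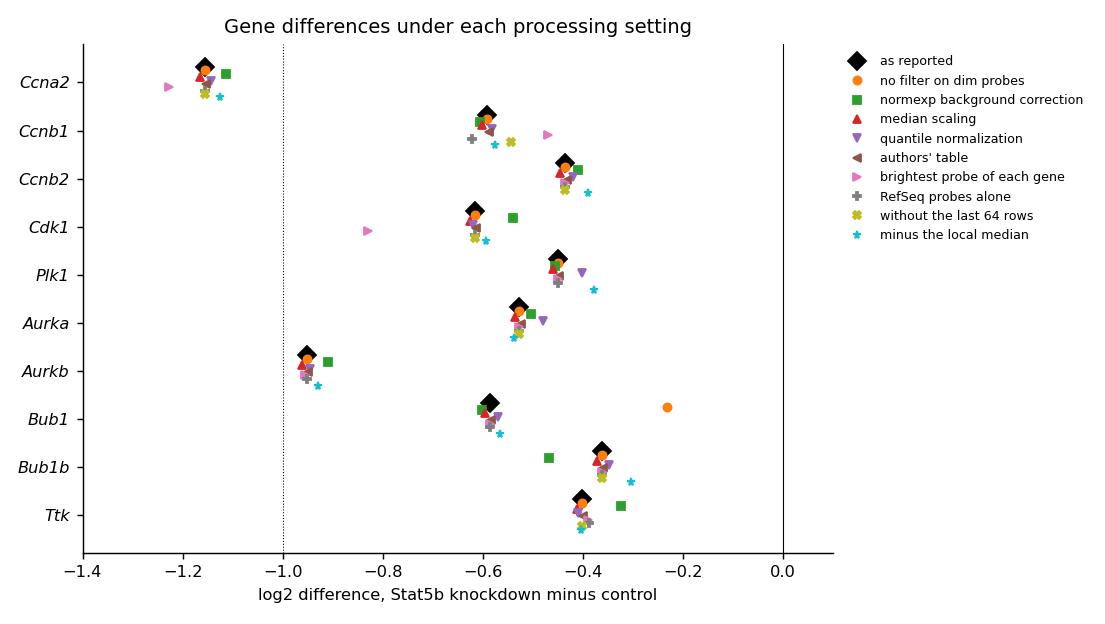
Log2 difference of each of the 10 genes as reported (black diamonds) and under the 9 other settings (coloured symbols), with the dotted line at 2-fold lower. All symbols lie left of 0, and Ccna2 alone lies left of the dotted line; Aurkb, Plk1 and Bub1 have no symbol without the last 64 rows.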

How the data were processed

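Per the labels, Cy3-labelled RNA was hybridised to 1 array per group. The deposited scanner files give the intensity of each spot from Agilent Feature Extraction 12.1.0.3 (protocol GE1_1200_Jun14, grid build mm9) per the file headers, with flags of 0 or 1. The authors' table holds log2 values. To within 0.001 for 100% of single-spot probes, these equal the log2 processed signal less 1 constant for each array, with column medians of -3.81 (knockdown) and -3.82 (control).

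A probe's value was log2 of the processed signal (floor 1, outlier spots and controls left out) minus the array's 75th percentile. Genes were given the mean of their probes well above background on both arrays. Probes were named by accession through RefSeq (GRCm38.p6, names only), otherwise by the file's symbol. Without replicates no test was run, and 2-fold (a log2 difference of 1) was a rule of size. The number of arrays limits the precision.

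The members and lists were chosen with earlier results of these data known. Named from each list were genes past 2-fold, the 3 lowest, the 2 highest and those on 1 array only. Alternatives covered background (limma 3.58.1 normexp, offset 50, on median signals, as the files hold no mean signal), scaling, probes, position and the authors' table. The calculation was tested on simulated data.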

Additional observations from a re-analysis of the deposited data

How the results depend on the processing

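No paired analysis was possible because each group has 1 array. Of 9 alternatives, 8 were planned and the subtraction of the local median was chosen after seeing the data. The median of the 10 genes ranged from -0.57 to -0.49, and the count past 2-fold was 1 under each. Of the 87 member values, 84 moved by less than the ± error of their gene, and those of Bub1, Cdk1 and Ccnb1 given above did not. Without the filter on dim probes 1000 genes were at least 2-fold lower and 1282 higher in the knockdown. Stat5b was then at -1.49, with its dimmer probe let in. With normexp the counts were 167 and 191, against 394 and 600 as reported. The cause of the shifts in these counts was not tested. With normexp Plk3 (-0.96), Plk5 (0.29), Sgo2a (-0.86) and Spc25 (-0.98) fell short of 2-fold, as did Spc25 with the local median taken off (-0.97). Cdk6 reached 2-fold with the authors' table and with the brightest probe. Of 311 values of the 35 list genes named by the rule, 4 changed sign. They were Spc24 with normexp (-0.00016), Ppp2r2a with the brightest probe (0.04), and Cdk7 (0.03) and Mad2l1bp (0.0011) with the local median. The median of the mitotic exit list ranged from -0.03 to 0.09.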
